A study of Mus musculus with 32 samples.

Results

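The subunits of the mitochondrial respiratory chain and ATP synthase that are encoded in the nucleus were followed in RNA-seq libraries of the E9.5 mouse forebrain (Fb) and midbrain (Mb). Members were the protein-coding genes whose GENCODE symbol begins with Nduf followed by a, b, c, s or v and a digit, is Sdha, Sdhb, Sdhc or Sdhd, or begins with Uqcr, with Cox, a digit from 4 to 8 and a letter, or with Atp5. This gave 85 genes, 37 of complex I, 4 of complex II, 8 of complex III, 18 of complex IV and 18 of complex V, of which 83 were among the 48576 gene identifiers of the expression tables. Cox4i1 and the second of 2 entries named Atp5o were not analysed here. The values were FPKM (fragment counts divided by exon length and by the mapped fragments of the library). They are per length, so levels of different genes can be set side by side, but small length differences weigh most on short genes. In all, 79 members averaged 1 FPKM or more over the 32 libraries, and Cox6a2, Cox7b2, Cox8b and Cox8c were listed at 0 in every library.

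The study compared wild type (WT) with embryos that lacked combinations of the type II cadherins Cdh6, Cdh8 and Cdh11, adhesion molecules of the closing neural tube. Each tissue had 16 libraries: 6 of WT, 4 of Cdh6/8/11 triple knockouts (TKO_Ex), 3 of Cdh8/11 double knockouts with exencephaly (DKO_Ex) and 3 of double knockouts with a cranial defect (DKO_CD). The alleles were made in B6C3F1 eggs, the founder was crossed with a B6C3F1 mouse, and every embryo was at E9.5. WT embryos came from WT matings and mutants from matings of triple heterozygotes, so maternal genotype and mutant group cannot be told apart.

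The alleles were small CRISPR deletions in the exon that carries the start codon, made together by injection of fertilized eggs, and Cdh8 and Cdh11 lie on the same chromosome. The tissue pieces were whole, with no sorting of cells. The sample records describe DKO_CD as Cdh6/8 knockouts, whereas the methods define the cranial defect group among Cdh8/11 knockouts. For 12 DKO tables the column heading named the other double knockout than the record that listed the table, and the headings were followed here. Depth, estimated from the smallest steps of the FPKM values, ran from 1.95 to 3.24 M fragments (median 2.61 M, where M is 1e6). Nothing in the records ties samples to separate embryos beyond their labels, so the p-values below measure the spread between these libraries. The main fits treated Fb and Mb libraries as unpaired, although some may come from the same embryo. A fit with the replicate numbers as a block was run as an alternative.

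The targeted genes were looked at first. Cdh6 stood at 1.84, 0.766, 3.74 and 0.572 FPKM in TKO_Ex Fb. In TKO_Ex Mb the 4 values were 0.388, 0.353, 3.10 and 0.345 FPKM. The lowest WT libraries had 2.04 FPKM in the Fb and 1.04 FPKM in the Mb, and in both tissues the library labelled TKO_Ex replicate 3 was no lower than WT. In DKO_CD libraries Cdh6 ranged from 1.72 to 3.43 FPKM in the Fb and from 1.29 to 2.11 FPKM in the Mb, and in DKO_Ex libraries from 3.62 to 4.34 FPKM and from 1.86 to 3.12 FPKM. Cdh8 ranged from 0.84 to 1.96 FPKM in WT Fb, 0.911 to 3.15 FPKM in TKO_Ex Fb, 0.423 to 0.702 FPKM in DKO_Ex Fb and 0.449 to 1.44 FPKM in DKO_CD Fb. In the Mb it ranged from 1.14 to 10.1 FPKM in WT, 0.851 to 2.32 FPKM in TKO_Ex, 1.63 to 2.49 FPKM in DKO_Ex and up to 1.47 FPKM in DKO_CD. DKO_Ex Fb alone lay wholly below WT for Cdh8. Cdh11 ranged from 17.9 to 28.7 FPKM over all WT libraries, 14.5 to 21.4 FPKM in TKO_Ex, 17.1 to 18.7 FPKM in DKO_Ex and 12.7 to 27.2 FPKM in DKO_CD. Since the deletions remove only a small piece of that exon, a level over the whole transcript does not test the genotype, and these levels do not settle which of heading and record is right. The tissue labels did match their markers: Lhx2, a LIM homeobox gene of the forebrain, averaged 71.4 ± 12.3 FPKM (SD, n = 6) in WT Fb and 2.92 ± 3.20 FPKM (SD, n = 6) in WT Mb. En2, a midbrain and hindbrain homeobox gene, averaged 0.123 ± 0.202 FPKM (SD, n = 6) in WT Fb and 47.4 ± 23.0 FPKM (SD, n = 6) in WT Mb.

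The respiratory chain carries electrons from NADH through complex I, or from succinate through complex II, to ubiquinone, then through complex III and cytochrome c to complex IV, where oxygen is reduced. Complexes I, III and IV pump protons across the inner mitochondrial membrane, and complex V, the ATP synthase, lets them return through its rotating c ring while its F1 head makes ATP. A small part of the subunits is made inside the mitochondrion from mitochondrial DNA, and the rest, described here, is imported from the cytoplasm. Their promoters are known targets of the transcription factors NRF1, GABP of the ETS family and YY1.

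Promoters of 250 bases before to 50 bases after the start were taken from RefSeq (GRCm38.p6), which held 71 promoters for 66 of the 85 members. On either strand, the NRF1 core GCGCATGCG was found in 11.3% of the member promoters against 1.75% of all 32851 promoters of that length, and the shorter TGCGCA, which can overlap it, in 25.4% against 7.76%. The ETS core CCGGAAG was found in 22.5% against 8.86%, and the YY1 core AAGATGGCG in 9.86% against 1.40%. At least 1 of these 4 motifs occurred in 49.3% of member promoters and in 16.7% of all. A match is a run of letters and not evidence of binding. Ndufs3, Atp5h and Atp5l are shown since they passed the test in a comparison below, and Cox6a1 since it was among the most abundant members and its promoter held both NRF1 motifs and the ETS core. Uqcrq, the other member past the threshold, had no entry in the table. Each promoter is on the minus strand and is written 5′ to 3′, with the matched motifs in capitals (CTTCCGG is the ETS core read on the other strand). In Atp5l the NRF1 core and the shorter NRF1 motif overlap. In Cox6a1 the NRF1 core matches on the opposite strands overlap, while the shorter motif stands apart from them.
Ndufs3 chr2:90904672-90904971: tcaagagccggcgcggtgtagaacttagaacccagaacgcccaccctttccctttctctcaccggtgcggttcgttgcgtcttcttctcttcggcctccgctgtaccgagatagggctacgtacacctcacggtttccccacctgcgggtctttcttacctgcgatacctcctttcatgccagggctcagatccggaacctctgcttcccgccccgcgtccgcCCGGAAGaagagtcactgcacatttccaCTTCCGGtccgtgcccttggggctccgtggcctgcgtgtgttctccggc
Atp5h chr11:115419870-115420169: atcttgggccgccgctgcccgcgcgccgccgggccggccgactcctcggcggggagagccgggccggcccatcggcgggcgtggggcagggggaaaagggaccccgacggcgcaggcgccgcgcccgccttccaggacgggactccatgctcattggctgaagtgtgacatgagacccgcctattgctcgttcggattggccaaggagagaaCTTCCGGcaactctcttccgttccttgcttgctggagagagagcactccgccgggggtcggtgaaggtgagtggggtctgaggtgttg
Atp5l chr9:44920693-44920992: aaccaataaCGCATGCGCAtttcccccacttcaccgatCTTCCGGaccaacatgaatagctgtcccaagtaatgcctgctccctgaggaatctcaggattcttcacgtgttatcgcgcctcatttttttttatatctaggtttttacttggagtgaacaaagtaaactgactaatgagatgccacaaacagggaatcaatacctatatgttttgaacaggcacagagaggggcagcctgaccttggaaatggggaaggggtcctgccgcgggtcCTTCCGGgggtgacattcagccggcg
Cox6a1 chr5:115348909-115349208: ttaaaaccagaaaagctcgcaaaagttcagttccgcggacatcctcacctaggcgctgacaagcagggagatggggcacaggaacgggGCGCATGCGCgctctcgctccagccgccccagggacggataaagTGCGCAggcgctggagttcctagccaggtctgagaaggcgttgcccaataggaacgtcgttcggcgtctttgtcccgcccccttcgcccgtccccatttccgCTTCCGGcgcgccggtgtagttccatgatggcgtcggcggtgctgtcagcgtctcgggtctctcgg

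The members were among the more abundant transcripts of these tissues. Their median level over the 32 libraries was 152 FPKM, against 11.1 FPKM for the 11623 protein-coding genes that averaged 1 FPKM or more. At or above 100 FPKM stood 50 members (63.3%) and 6.94% of those protein-coding genes. The members were also short: the median coding length was 411 bases, against 1386 bases for the other protein-coding genes.

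Levels differed by complex and by role. The median level of a complex I gene was 98.9 FPKM, of a complex II gene 78.4 FPKM, of a complex III gene 309 FPKM, of a complex IV gene 185 FPKM and of a complex V gene 331 FPKM. In complex I the core subunits, which hold the flavin and the iron-sulfur clusters, had a median of 75.3 FPKM and ran from 32.3 FPKM for Ndufs8 to 101 FPKM for Ndufv2. The accessory subunits around them had a median of 128 FPKM, with Ndufa4 highest at 311 FPKM (the symbol rule places it here, although its protein is now known as a complex IV subunit). The 4 genes of complex II, the succinate dehydrogenase, lay closest together, from 70.8 FPKM for the iron-sulfur subunit Sdhb to 87.7 FPKM for the membrane anchor Sdhd.

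In complex III, the core proteins Uqcrc1 and Uqcrc2 stood at 124 and 54.8 FPKM and the Rieske iron-sulfur protein Uqcrfs1 at 87.9 FPKM. Its small subunits were all higher, from 298 FPKM up to 455 FPKM for Uqcrq. Their coding lengths ran from 168 to 333 bases, against 822 to 1440 bases for the other complex III genes, and the part of length was not tested. In complex IV the subunits used in most tissues ran from 138 FPKM for Cox7a2 to 661 FPKM for Cox7c. In complex V the catalytic β subunit Atp5b, at 1325 FPKM (1005 to 1541 FPKM over the libraries), was the highest member of all. The 3 genes for the c ring, which encode the same mature protein, stood at 474 FPKM for Atp5g3, 342 FPKM for Atp5g2 and 264 FPKM for Atp5g1. The lowest member of complex V, Atp5s, stood at 2.71 FPKM.

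**Figure D1:**
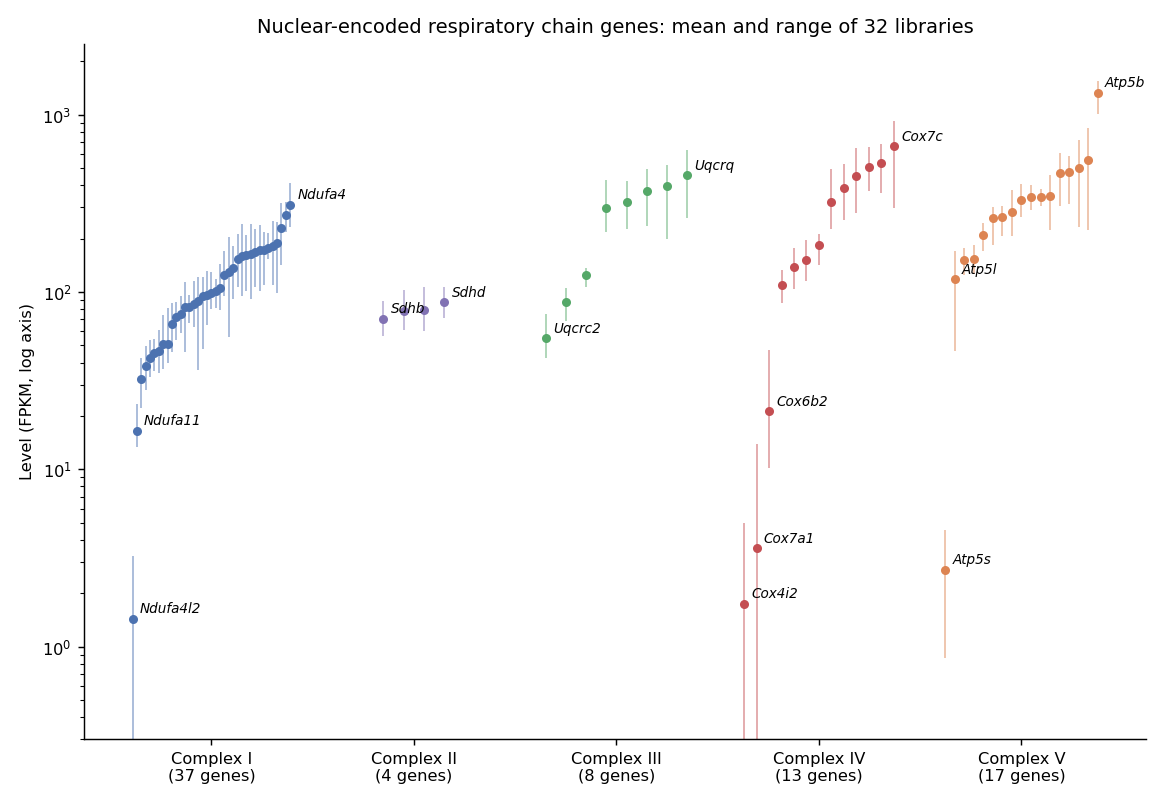
Mean level of each member over the 32 libraries (points, FPKM, log axis), with the lowest and highest library (lines), by complex. Complexes III and V hold most of their genes above 200 FPKM, and 4 genes listed at 0 in every library are not drawn; the lines of Ndufa4l2, Cox7a1 and Cox4i2 run off the foot of the axis because some libraries list them at 0.

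In the isoform pairs of complex IV that were measured, the gene used in most tissues had the higher level. Cox6b1 stood at 322 FPKM and its testis isoform Cox6b2 at 21.3 FPKM, with a ratio between 6.39 and 31.6 over the libraries. Cox7a2 stood at 138 FPKM and the heart and muscle isoform Cox7a1 at 3.59 FPKM, with 9 libraries listing Cox7a1 at 0. The related Cox7a2l, which helps to assemble supercomplexes, stood at 110 FPKM. The other isoforms were at the floor of these libraries. Cox6a2, the muscle partner of Cox6a1 (505 FPKM), was at 0 throughout, where 3 fragments would have given 1.36 FPKM in the deepest library and 2.27 FPKM in the shallowest. Cox7b2, partner of Cox7b (152 FPKM), and Cox8b and Cox8c, partners of Cox8a (530 FPKM), were likewise at 0, with 3-fragment levels of up to 2.84, 4.28 and 3.37 FPKM. Cox4i2, an isoform known for its induction by low oxygen, stood at 1.75 FPKM, and Ndufa4l2, also known as a hypoxia-induced gene, at 1.44 FPKM.

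The first comparison asked whether the members differ between the Mb and the Fb of WT embryos. Ndufs3 and Atp5h were lower in the Mb and no member was higher by the test, while most other members had lower values in the Mb that did not pass. By limma on log2(FPKM + 1) with adjustment over all genes tested, 2 of 79 members passed an adjusted p of 0.05 (both lower in the Mb), against 8.26% of the 13344 genes tested. At an unadjusted p under 0.05 there were 19 members (24.1%), all lower in the Mb, against 20.9% of all genes, so the share of members past either threshold was below or near the background. The median log2 difference of the members was -0.12, beside -0.00 for all genes, with 15 members higher and 64 lower (28 higher when the libraries were quantile normalized).

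Ndufs3 (ENSMUSG00000005510, chr2:90894634-90904827, minus strand), a core subunit of the arm that passes electrons to ubiquinone, was measured at 76.2 (lowest), 85.6 (median) and 95.3 FPKM (highest) in the 6 WT Fb libraries. In the 6 WT Mb libraries it was measured at 63.4 (lowest), 70.4 (median) and 78.2 FPKM (highest). The groups touched only at their edges, the highest Mb library lying above the lowest Fb library. The difference was -0.29 ± 0.075 (log2, SE; limma adjusted p = 0.0291), from 86.3 ± 7.34 to 70.4 ± 5.49 FPKM (SD, n = 6 each). A two-sided exact permutation test gave p = 0.00433, and 0.13 after adjustment over the 40 such tests run on 4 members. These 4 were the members past the limma threshold on the same values, so the permutation p-values are not separate support for the calls.

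Atp5h (ENSMUSG00000034566, chr11:115415689-115419962, minus strand), subunit d of the stalk that holds the F1 head of ATP synthase in place, was measured at 338, 354 and 365 FPKM (lowest, median and highest) in WT Fb. In WT Mb the lowest, median and highest were 288, 301 and 349 FPKM. Only WT_Mb replicate 1, at 349 FPKM, reached the Fb range, and the next Mb library was at 307 FPKM. The difference was -0.20 ± 0.056 (log2, SE; limma adjusted p = 0.0451), from 351 ± 10.2 to 306 ± 22.2 FPKM (SD, n = 6 each). The exact permutation test gave p = 0.00649, also 0.13 after adjustment.

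By complex, the median log2 difference in WT was -0.12 for complex I, -0.05 for complex II, -0.23 for complex III, -0.10 for complex IV and -0.14 for complex V. All 17 complex V genes had a negative value, from -0.29 for Atp5k to -0.00 for Atp5a1. In complex III the 5 small subunits ran from -0.34 for Uqcr11 to -0.18 for Uqcrh, while the core proteins Uqcrc1 and Uqcrc2 were at 0.00 and 0.11. Next in order of p came Ndufa5, a small accessory subunit of the peripheral arm, with 185 ± 18.0 FPKM in WT Fb and 142 ± 26.5 FPKM in WT Mb (SD, n = 6 each; -0.39, limma adjusted p = 0.0607). The value furthest above 0 was that of Ndufa4l2 (0.67), a gene at 1.02 FPKM in WT Fb. In whole tissue, fewer cells of a type and less RNA per cell cannot be told apart.

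The calls rested on settings and on single libraries. After quantile normalization the limma adjusted p was 0.0827 for Ndufs3 and 0.254 for Atp5h, with a member median of -0.04, and without the mean-variance trend it was 0.057 and 0.123. Atp5h alone lost its call with the filter applied in every library (limma adjusted p = 0.059), with all groups in one fit (0.133) and with the replicate numbers as a block (0.117). Over 22 alternatives Ndufs3 lost its call in 9 and Atp5h in 16, and both stayed lower in the Mb in all 22. Without WT_Mb replicate 1, 10 members passed, all lower in the Mb: Atp5h (-0.24, limma adjusted p = 0.00543), Ndufa6, Uqcr10, Atp5b, Ndufa3, Ndufs6, Uqcr11, Atp5j, Cox7c and Ndufs3. The share of all genes called in that fit is not given here, so these 10 members are not set against a background. Without WT_Fb replicate 2, 3 or 5 or WT_Mb replicate 4, none passed.

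**Figure D2:**
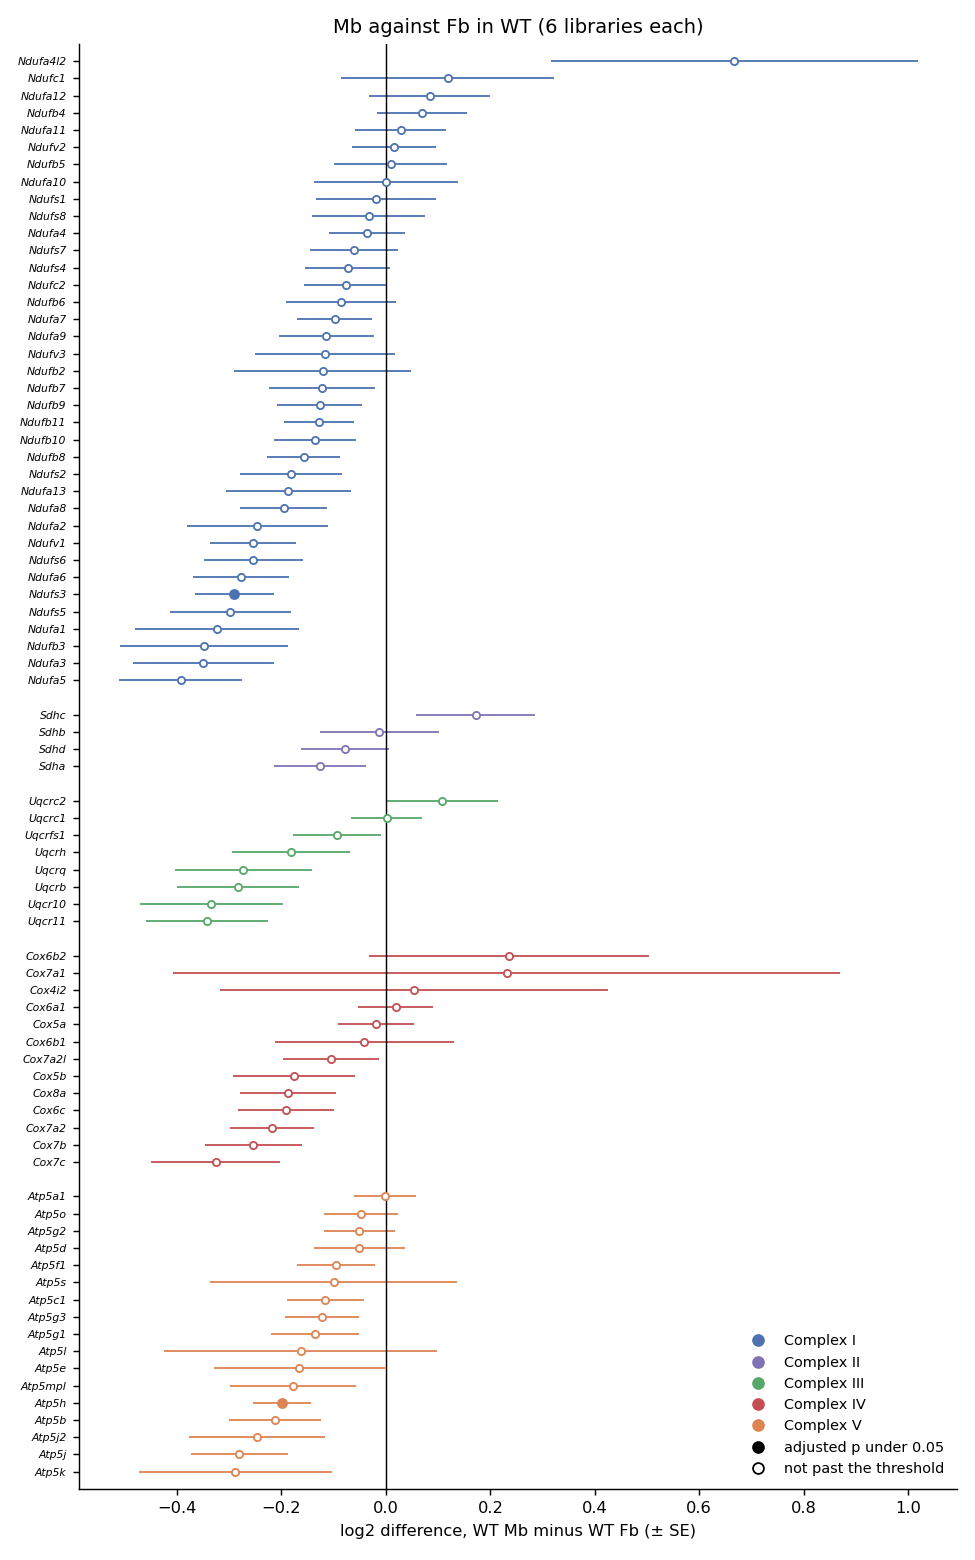
Log2 difference of each of the 79 members between WT Mb and WT Fb (points, with standard error; 6 libraries each), by complex. Filled points passed an adjusted p of 0.05 (Ndufs3 and Atp5h), and 64 of the 79 points lie left of 0.

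The same tissue difference was then looked at in the mutants. In TKO_Ex no member passed the limma test, against 2.89% of all genes, and 2 members reached an unadjusted p under 0.05 against 12.6%. The median member difference was 0.06 (all genes 0.00), with 52 members above 0 and 27 below. Without TKO_Ex_Fb replicate 1 the median was -0.03, and without TKO_Ex_Fb replicate 4 it was 0.11. Ndufc1, a small membrane-arm subunit of complex I, had the smallest p. In Fb it was measured at 117, 154, 150 and 122 FPKM, and in Mb at 109, 108, 55.9 and 79.5 FPKM. The 2 groups did not overlap, but the difference (-0.66, limma adjusted p = 0.191) did not pass. Of all genes, 8.94% had no overlap in this comparison. Ndufa5 had the highest difference, 0.53.

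In DKO_Ex 2 of 79 members passed, both lower in the Mb. This share was near the 2.58% of all genes that passed, so no trait of the members is read from it. Uqcrq (ENSMUSG00000044894, chr11:53427922-53430831, minus strand), a small subunit of complex III near the ubiquinone site, was at 520, 512 and 484 FPKM in Fb. It was at 353, 334 and 377 FPKM in Mb. The groups lay well apart, with a difference of -0.51 ± 0.083 (log2, SE; limma adjusted p = 0.0259). Atp5l (ENSMUSG00000038717, chr9:44912557-44920742, minus strand), subunit g of the ATP synthase membrane sector, was at 142, 159 and 124 FPKM in Fb and at 70.6, 75.1 and 97.3 FPKM in Mb. These groups did not overlap either, with a difference of -0.81 ± 0.153 (log2, SE; limma adjusted p = 0.0456). The exact permutation p was 0.1 for each, the smallest that 3 against 3 allows. In this comparison 26.6% of members and 20.5% of all genes had no overlap between the groups.

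At an unadjusted p under 0.05 there were 21 members in DKO_Ex (26.6%; 18 lower and 3 higher in the Mb) against 14.4% of all genes. The median member difference was -0.11 (all genes 0.04), with 19 members above 0 (28 after quantile normalization) and 60 below. The low members Cox7a1 (-0.98) and Cox4i2 (0.97) had the outermost values. With the DKO groups set by the records, Uqcrq turned to 0.065 (limma adjusted p = 0.906), Atp5l was at -0.17 (limma adjusted p = 0.823) and the member median was 0.01. Both calls were also lost with no filter, with all groups in one fit, without the mean-variance trend and with the replicate block (limma adjusted p = 0.0606 for Uqcrq and 0.111 for Atp5l, with Atp5e called at 0.0342), and when any DKO_Ex Fb library or DKO_Ex_Mb replicate 1 or 2 was left out, and without DKO_Ex_Mb replicate 3 the calls were Cox7c, Ndufa1, Atp5l and Uqcrq. The share of all genes called without DKO_Ex_Mb replicate 3 is not given here, so those calls are not set against a background. The median was -0.19 without DKO_Ex_Mb replicate 3 and -0.07 without replicate 2 or after quantile normalization.

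In DKO_CD no member passed (0.507% of all genes), and 5 reached an unadjusted p under 0.05 (10.1% of all genes). The median was 0.01 (all genes -0.02), with 41 members above 0 (52 after quantile normalization) and 38 below. It was -0.11, with Uqcrq and Atp5l called, when the records set the groups, since the 12 tables then exchange their group names. Cox6c, a small subunit of complex IV, had the smallest p (0.23, limma adjusted p = 0.291). It was at 423, 414 and 391 FPKM in Fb and at 462, 498 and 484 FPKM in Mb. The outermost values were those of Cox7a1 (-1.76) and Ndufa4l2 (0.69), both under 10 FPKM in nearly all libraries.

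**Figure D3:**
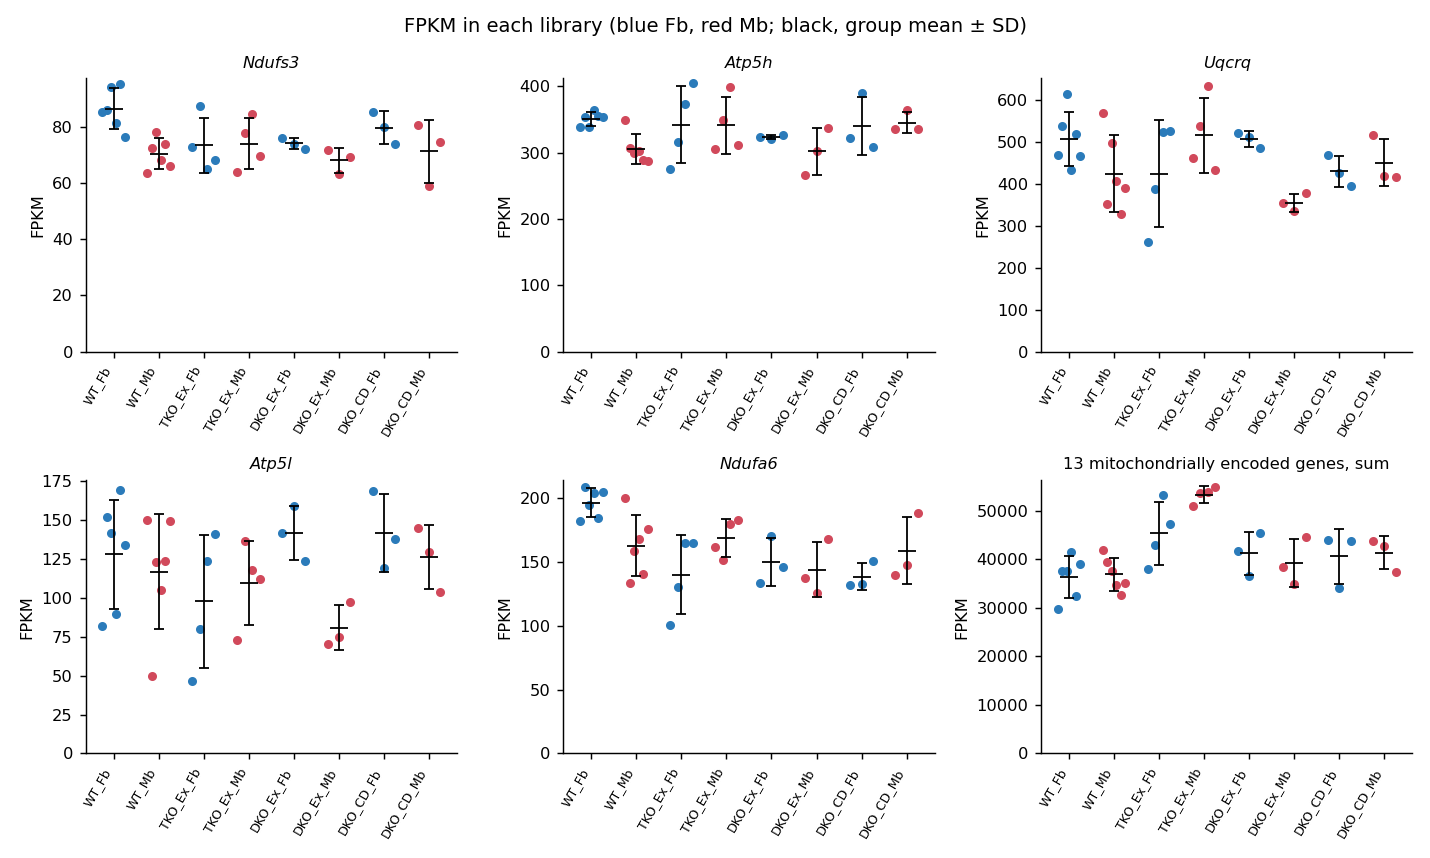
FPKM of 5 members and the summed FPKM of the 13 mitochondrially encoded genes in each library (points; blue Fb, red Mb), with group mean ± SD in black (n = 6, 4, 3 and 3 per tissue for WT, TKO_Ex, DKO_Ex and DKO_CD). Uqcrq and Atp5l separate Fb from Mb in DKO_Ex, Ndufa6 is lower in each mutant Fb group than in WT Fb, and the mitochondrial sum is highest in TKO_Ex Mb. In DKO_Ex, 20.5% of all genes have no overlap between Fb and Mb.

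Mutants were then set against WT within each tissue, to ask whether loss of the cadherins goes with a change in the chain. The 3 comparisons in a tissue share the same 6 WT libraries, so their values are given side by side and are not independent. No member passed the adjusted threshold in any of the 6. In the Mb, the members past an unadjusted p of 0.05 were mostly higher in TKO_Ex and few in the double knockouts. In the Fb, they were lower in every mutant group. Of all genes, 8.38%, 5.46% and 6.69% reached that p in the Mb (TKO_Ex, DKO_Ex and DKO_CD). In the Fb 8.66%, 7.01% and 8.44% did, in the same order. The Fb member counts given below were near or above these shares, and no change of the members is read from them.

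In TKO_Ex Mb 0 of 79 members passed by limma, against 0.0898% of all genes. At an unadjusted p under 0.05 there were 13 members (16.5%; 12 higher, 1 lower), against 8.38%. The median member difference was 0.07 (all genes 0.02), with 51 members above 0. After quantile normalization the median was 0.01, with 42 members above 0. Uqcrb, a small subunit of complex III, had the smallest p: it was at 399, 390, 422 and 306 FPKM in TKO_Ex Mb and at 226, 271 and 342 FPKM (lowest, median and highest) in WT Mb. The groups overlapped through 1 TKO_Ex library (0.48, limma adjusted p = 0.302). Cox8a, the smallest subunit of complex IV, was at 610 ± 53.6 FPKM (SD, n = 4) against 476 ± 57.6 FPKM (SD, n = 6) with no overlap (0.36, limma adjusted p = 0.316). There was no overlap for 2.53% of members and 1.74% of all genes in this comparison. The outermost values were Cox7a1 (-0.84) and Ndufa5 (0.49), followed at the low end by Ndufc1 (-0.73).

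In DKO_Ex Mb 0 of 79 members passed (0.0903% of all genes), and 4 reached an unadjusted p under 0.05, all lower (5.46% of all genes). The median was -0.08 (all genes 0.03), with 17 members above 0, and it was -0.03 without DKO_Ex_Mb replicate 2 and -0.15 without replicate 3. Ndufb9, an accessory subunit of the membrane arm of complex I, had the smallest p. It was at 94.8, 104 and 95.1 FPKM against 111, 121 and 133 FPKM (lowest, median and highest) in WT Mb. All 3 mutant libraries lay below WT (-0.31, limma adjusted p = 0.616). The groups had no overlap for 3.0% of all genes in this comparison. In DKO_CD Mb 0 of 79 passed (0.0375% of all genes), and 2 reached an unadjusted p under 0.05, both higher (6.69% of all genes). The median was 0.11 (all genes 0.02), with 63 members above 0 (54 after quantile normalization). Ndufv2, a core iron-sulfur subunit, had the smallest p there (0.19, limma adjusted p = 0.734), at 112, 104 and 118 FPKM against 89.4, 96.0 and 109 FPKM (lowest, median and highest) in WT Mb. With the groups set by the records the medians changed sign, to 0.11 in DKO_Ex Mb and -0.08 in DKO_CD Mb. The outermost values were those of Cox7a1 (-0.70) and Atp5s (0.22) in DKO_Ex Mb, and of Cox7a1 (-0.55) and Ndufa13 (0.30) in DKO_CD Mb.

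In TKO_Ex Fb 0 of 79 members passed (0.0603% of all genes), and 8 reached an unadjusted p under 0.05, all lower (8.66% of all genes). In DKO_Ex Fb 0 of 78 passed (0.0759%), and 9 reached an unadjusted p under 0.05, all lower (7.01%). In DKO_CD Fb 0 of 78 passed (0.0378%), and 9 reached an unadjusted p under 0.05, all lower (8.44%). The median member difference was -0.07 in TKO_Ex (all genes 0.02), -0.07 in DKO_Ex (all genes -0.02) and -0.04 in DKO_CD (all genes 0.04). The TKO_Ex median rested on single libraries, at 0.00 without replicate 1, -0.11 without replicate 3 and -0.18 without replicate 4. In DKO_CD it was -0.08 after median-of-ratios scaling, where Ndufa6 passed (-0.55, limma adjusted p = 0.0402), and -0.02 after quantile normalization, and in DKO_Ex -0.03 after quantile normalization. Members above 0 numbered 20 in TKO_Ex, 22 in DKO_Ex (35 after quantile normalization) and 30 in DKO_CD (22 after median-of-ratios scaling).

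Ndufa6 (chr15:82350140-82354322, minus strand), an accessory subunit of the peripheral arm of complex I, came first or second by p in each Fb comparison. It was at 182, 199 and 209 FPKM (lowest, median and highest) in WT Fb. It was at 101, 130, 165 and 165 FPKM in TKO_Ex Fb, at 134, 170 and 146 FPKM in DKO_Ex Fb and at 132, 133 and 151 FPKM in DKO_CD Fb. Every mutant Fb library lay below the lowest of the shared WT libraries. Of all genes, 2.23% (TKO_Ex), 3.7% (DKO_Ex) and 4.22% (DKO_CD) had no overlap with WT Fb. The log2 differences of Ndufa6 were -0.51 (TKO_Ex, limma adjusted p = 0.252), -0.39 (DKO_Ex, limma adjusted p = 0.28) and -0.50 ± 0.075 (DKO_CD, SE, limma adjusted p = 0.0667). In the Mb, where WT ran from 134 to 200 FPKM, the groups overlapped and the differences were 0.06, -0.17 and -0.04 in the same order.

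Cox5b, the zinc-binding subunit of complex IV, had the smallest p in DKO_Ex Fb. It was at 320, 302 and 338 FPKM against 379, 415 and 441 FPKM (lowest, median and highest) in WT Fb. The groups did not overlap (-0.37, limma adjusted p = 0.122). In DKO_CD Fb the same gene was at 256, 414 and 431 FPKM and overlapped WT. The outermost values were those of Cox7c (-0.53) and Cox6b2 (0.22) in TKO_Ex Fb, of which Cox7c was at -0.25 without replicate 1, of Cox4i2 (-1.14) and Cox7a1 (0.51) in DKO_Ex Fb, and of Ndufa6 (-0.50) and Cox7a1 (1.44) in DKO_CD Fb.

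The interaction term asked whether a mutant effect differed between the Mb and the Fb, and its values are differences of log2 differences. For TKO_Ex no member passed (0.0149% of all genes), and 15 (19.0%; 14 above 0, 1 below) reached an unadjusted p under 0.05, against 6.50%. The median was 0.18 (all genes -0.00), with 64 members above 0. After quantile normalization the median was 0.08, with 55 members above 0, and it was 0.08 without TKO_Ex_Fb replicate 1 and 0.27 without TKO_Ex_Fb replicate 4. Ndufa5 had the highest value, 0.92 ± 0.227 (SE; limma adjusted p = 0.5), and Cox7a1 the lowest (-0.79). Ndufa5 was at 95.9, 170, 129 and 163 FPKM in TKO_Ex Fb, at 181, 214, 241 and 160 FPKM in TKO_Ex Mb, between 156 and 202 FPKM in WT Fb and between 104 and 181 FPKM in WT Mb. The tissues overlapped in both genotypes. By complex, the medians were 0.17 for complex I, 0.01 for II, 0.34 for III, 0.08 for IV and 0.21 for V.

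For DKO_Ex no member and no gene passed by limma (0% of genes), and no member reached an unadjusted p under 0.05 (3.88% of all genes). The median was 0.01 (all genes 0.04), with 42 members above 0 (34 after quantile normalization and 33 after median-of-ratios scaling). Cox7a1 (-1.21) and Cox4i2 (0.91) were outermost, and Ndufb9 (-0.28) had the smallest p. For DKO_CD no member passed (0.00746% of all genes), and 10 reached an unadjusted p under 0.05, all above 0 (4.83% of all genes). The median was 0.13 (all genes -0.02), with 65 members above 0. After quantile normalization it was 0.08, with 60 members above 0, and when the records set the groups the DKO_Ex and DKO_CD medians were 0.13 and 0.01. Cox6c had the smallest p (0.42, limma adjusted p = 0.99), and Cox7a1 (-1.99) and Ndufa5 (0.51) were outermost.

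In several comparisons the members' values differed with coding length, and single libraries stood apart. In the WT tissue comparison the median of the members (-0.12) lay next to that of the other protein-coding genes of up to 450 coding bases (-0.11), while genes of more than 3000 coding bases were at 0.05. In the DKO_Ex tissue comparison the same 3 medians were -0.11, -0.12 and 0.11, and in the TKO_Ex interaction they were 0.18, 0.15 and -0.06. Within the members, the 46 genes of up to 450 coding bases had medians of -0.18, -0.25 and 0.27 in these comparisons, against -0.11, -0.03 and 0.08 for the 11 members of more than 900 bases. This was not so everywhere: in DKO_Ex Fb against WT the short members were at -0.02 and the long ones at -0.07, and in the DKO_CD tissue comparison at 0.00 and 0.01. The part of coding length in the members' shifts was not tested.

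**Figure D4:**
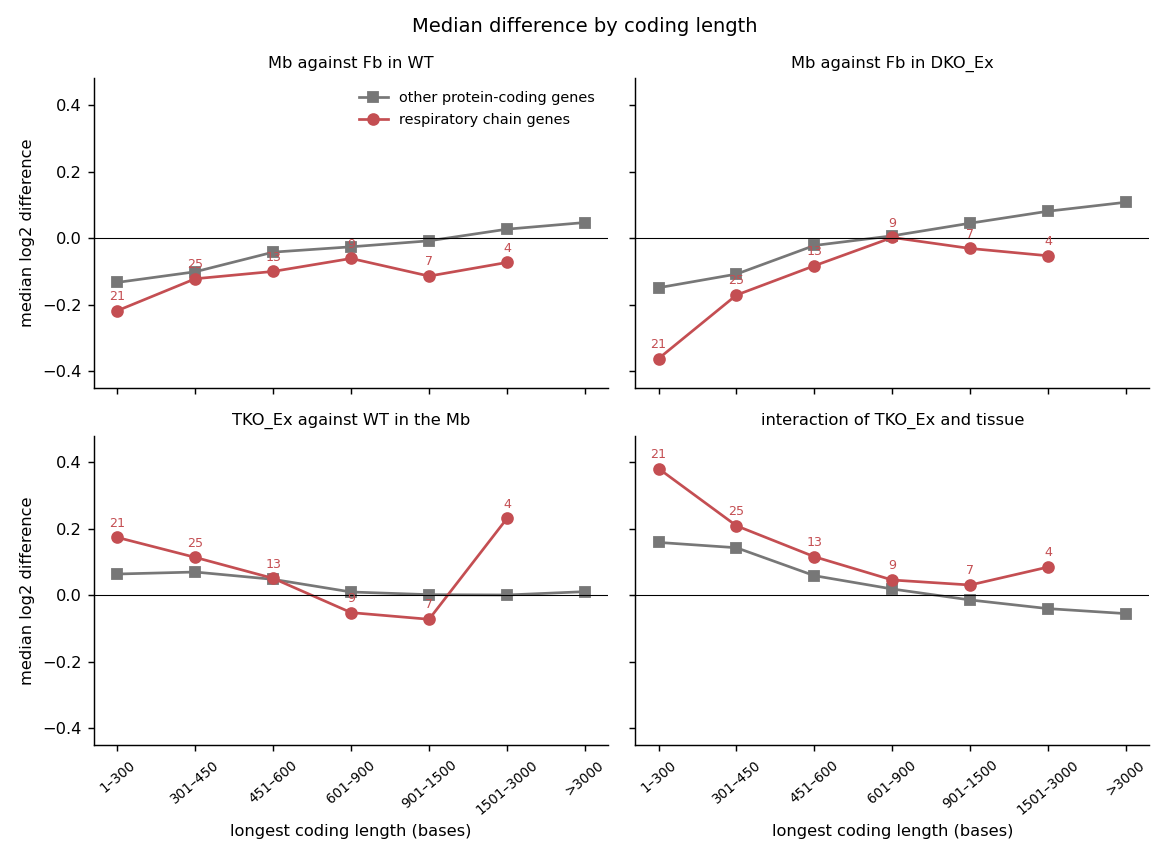
Median log2 difference by longest coding length (bases) for the members (red, with the number of genes) and the other protein-coding genes (grey) in 4 comparisons. The 2 shortest classes of both gene sets lie on the same side of 0 in each panel, and only the first 2 red points rest on 20 or more genes.

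By library, the median deviation of the members from their 32-library mean was lowest in TKO_Ex_Fb replicate 1 (log2 -0.33), the deepest library at 3.24 M fragments, where the other short genes stood at -0.22. DKO_Ex_Mb replicate 2 was next lowest at -0.23, with replicates 1 and 3 at -0.12 and 0.01, and this group was the deepest, from 3.09 to 3.23 M fragments. The TKO_Ex Mb group was the shallowest, from 1.95 to 2.34 M fragments, and stood between -0.03 and 0.12. WT_Mb replicate 1 (0.13) stood apart from the other 5 WT Mb libraries, which ran from -0.13 to -0.04. The part of depth in these shifts was not tested.

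**Figure D5:**
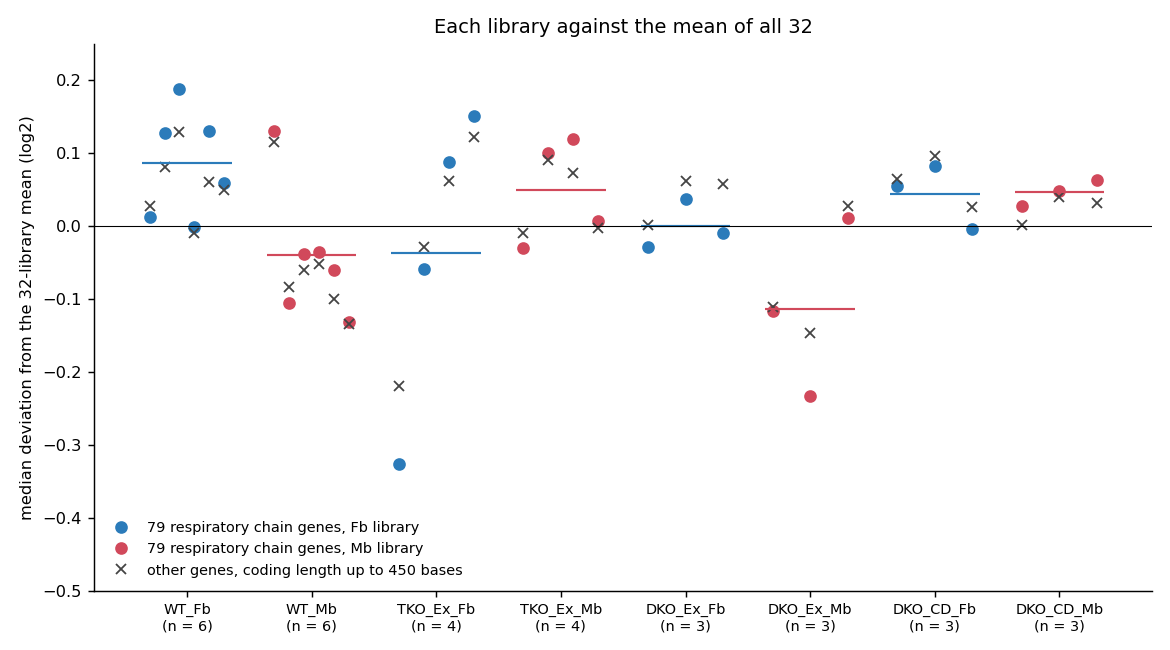
Median log2 deviation of the 79 members (coloured points; bars are group means) and of other protein-coding genes of up to 450 coding bases (crosses) from the mean of all 32 libraries, by group. TKO_Ex_Fb replicate 1 is lowest for the members and for the other short genes, and WT_Mb replicate 1 lies above the rest of its group.

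In FPKM summed over all members, WT Fb stood at 17416 ± 1258 and WT Mb at 15532 ± 1522 (SD, n = 6 each). TKO_Ex stood at 15922 ± 2968 in the Fb and 17011 ± 1014 in the Mb (SD, n = 4 each). DKO_Ex stood at 16504 ± 319 in the Fb and 14300 ± 1408 in the Mb (SD, n = 3 each), and DKO_CD at 16565 ± 317 and 16540 ± 282 (SD, n = 3 each). The lowest sum, 11859 FPKM, was that of TKO_Ex_Fb replicate 1, and the highest, 18779 FPKM, that of TKO_Ex_Fb replicate 4, so the range within TKO_Ex Fb spanned every group mean.

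The cadherin genes lie on chromosomes 8 (Cdh8, Cdh11) and 15 (Cdh6), and the members on these chromosomes are given by position. On chromosome 8 are Ndufb7 (chr8:83566671-83571626, plus strand), 15.5 Mb from Cdh8, and Ndufa13 (chr8:69894180-69902558, minus strand), 29.1 Mb from it. Cox4i1, 21.3 Mb from Cdh8 and 17.9 Mb from Cdh11, also lies on chromosome 8 but was not analysed here. On chromosome 15 are Cox6c, Ndufb9, Ndufa6 and Atp5g2, from 22.8 to 89.5 Mb from Cdh6. In the 6 comparisons with WT none of the 6 members analysed passed. Ndufb7, an accessory subunit of complex I, ran from 139 to 202 FPKM in WT Fb and from 140 to 194 FPKM in WT Mb, with mutant differences between -0.18 and 0.11. Ndufa13 had positive differences in all 6, from 0.05 to 0.37, with the smallest limma adjusted p at 0.552.

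The gene beside Ndufb7, Tecr (chr8:83571698-83607971, minus strand), an enzyme of very long chain fatty acid synthesis, was looked at after its values were seen. It ran from 132 to 173 FPKM in WT Fb and from 136 to 186 FPKM in WT Mb, and from 226 to 337 FPKM in all mutant libraries, with no overlap in either tissue. The limma adjusted p was 0.0134 in TKO_Ex Mb (0.92), 0.0119 in DKO_Ex Mb (0.94), 0.112 in DKO_CD Mb (0.79), 0.0357 in TKO_Ex Fb (0.69), 0.00712 in DKO_Ex Fb (0.84) and 0.0155 in DKO_CD Fb (0.78). Its part in the values of Ndufb7 was not tested.

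Other genes of the pathway were taken from lists of assembly factors, carriers, mitochondrially encoded subunits, the citric acid cycle and regulators. In WT Mb against WT Fb, none of the 14 complex I, 10 complex II and III, 21 complex IV and 4 complex V assembly and inhibitor genes passed by limma. Of these, 1, 1, 0 and 0 reached an unadjusted p under 0.05 (20.9% of all genes did), and the list medians were -0.07, -0.21, -0.03 and -0.01. Their most abundant genes were Ndufaf2, Uqcc2, Cox17, the copper chaperone, and Atpif1, the inhibitor of ATP synthase. These assembly lists held no gene past the threshold in any of the other comparisons either, where at most 4 of the 21 complex IV assembly genes reached an unadjusted p under 0.05 in a comparison with WT (TKO_Ex Fb, where 8.66% of all genes did). Ndufab1 (166 FPKM) and Cyc1, subunits outside the symbol rule, were not called in any comparison.

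Of the carriers, led by cytochrome c (Cycs, 33.2 FPKM), Coq7, an enzyme of ubiquinone synthesis, was lower in WT Mb, as 1 of 8 tested. It was measured at 31.3 ± 0.902 FPKM in WT Fb and 24.3 ± 3.07 FPKM in WT Mb (SD, n = 6 each; -0.36, limma adjusted p = 0.0171). Of 16 genes of pyruvate dehydrogenase and the citric acid cycle, led by Mdh2, only Pdha1, the E1α subunit of pyruvate dehydrogenase, passed in WT, where 8.26% of all genes did. It rose from 79.3 ± 6.48 FPKM in WT Fb to 106 ± 7.36 FPKM in WT Mb (SD, n = 6 each), with no overlap between groups (0.42, limma adjusted p = 0.00175), and by 0.50 in TKO_Ex (limma adjusted p = 0.00854). Of 12 regulators (10 tested), led by Tfam, Tfb1m alone passed in WT. Tfb1m, which methylates mitochondrial ribosomal RNA, was higher in WT Mb (0.72, limma adjusted p = 0.0255). Polrmt, the mitochondrial RNA polymerase, was lower in the Mb of TKO_Ex (-0.67, limma adjusted p = 0.018). Both kept their direction in every alternative, but Polrmt lost its call in 5 of 18 (limma adjusted p from 0.0517 to 0.522: with all groups in one fit, with the replicate block, and without TKO_Ex_Fb replicate 1 or TKO_Ex_Mb replicate 1 or 4). Tfb1m lost its call in 5 of 22, each time without 1 library (WT_Fb replicate 3, 4 or 5, or WT_Mb replicate 2 or 4; limma adjusted p from 0.0503 to 0.0597), and Coq7 in 1, with the replicate block (0.0566).

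Of the 13 mitochondrially encoded subunits, partners of the members in the same complexes, 2 were higher in TKO_Ex Mb than in WT Mb by limma (0.0898% of all genes passed). mt-Nd1, a membrane-arm subunit of complex I, was at 5252, 5487, 5792 and 5063 FPKM in TKO_Ex Mb and between 3317 and 4111 FPKM in WT Mb. The groups lay apart (0.55 ± 0.075 SE, limma adjusted p = 0.023). mt-Atp8, a short subunit of ATP synthase and the most abundant of the 13, was at 12116, 11630, 11210 and 13347 FPKM in TKO_Ex Mb and between 5208 and 8152 FPKM in WT Mb (0.93 ± 0.131 SE, limma adjusted p = 0.0233). All 13 reached an unadjusted p under 0.05 (8.38% of all genes did), all higher, with a median of 0.48. After quantile normalization 7 of 13 did, with 1 past the adjusted threshold and a median of 0.28. The 13 are processed from shared transcripts and are not independent.

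Summed over the 13, WT Mb ran from 32701 to 41811 FPKM and TKO_Ex Mb from 50913 to 54932 FPKM without overlap. In the Fb, WT ran from 29840 to 41541 FPKM and TKO_Ex from 37982 to 53159 FPKM, and 0 of 13 passed by limma (0.0603% of all genes) while 9 reached an unadjusted p under 0.05 (8.66% of all genes; median 0.30). The DKO groups ran from 34120 to 45446 FPKM. In WT Mb against WT Fb the median was 0.02 and no gene passed or reached an unadjusted p under 0.05. The Mb calls rested on the libraries: their number ran from 0 to 6 when single libraries were left out, with 6 without WT_Mb replicate 1 and 0 without any 1 of the 4 TKO_Ex Mb libraries or WT_Mb replicates 3, 4 or 6. With no filter, no mean-variance trend or the replicate numbers as a block 0 passed, and all 13 values stayed above 0 in each of these fits. The share of all genes called in the alternative fits is not given here, so these counts are not set against a background. TKO_Ex Mb also had the lowest depth, and its part was not tested.

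Markers of cell types that the whole tissue can hold moved with the tissue comparison. In WT Mb against WT Fb, where 8.26% of all genes passed, 7 of 7 forebrain markers were lower, with summed levels of 162 to 222 FPKM in Fb and 0.969 to 13.1 FPKM in Mb (most abundant Lhx2). Of 6 midbrain markers 5 were higher, at 5.65 to 9.45 FPKM in Fb and 30.4 to 206 FPKM in Mb (En2). WT_Mb replicate 5 had the lowest sum of its group. Of the neuron markers, all 5 that were measured were higher, at 6.94 to 16.5 FPKM in Fb and 36.5 to 77.1 FPKM in Mb (Stmn2), and WT_Mb replicate 1 was the lowest of the Mb. Neural progenitor markers gave 3 higher (Nes, Vim, Hes5) and 1 lower (Pax6) of 6, with sums of 405 to 499 FPKM in Fb and up to 889 FPKM in Mb (Vim), without overlap.

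Mesenchyme and crest markers were lower in WT Mb for 6 of 8 genes, at 170 to 209 FPKM in Fb and 70.6 to 118 FPKM in Mb (Twist1). Surface ectoderm markers were lower for all 5 tested of 6, at 58.0 to 96.9 FPKM in Fb and at most 38.3 FPKM in Mb (Krt18). Of the 6 endothelial markers (Cldn5) and the 6 primitive red cell markers (Hbb-y) none passed or reached an unadjusted p under 0.05. Red cell sums ran from 2652 to 23520 FPKM in Fb and from 5218 to 23391 FPKM in Mb. Heart and muscle markers (Myl7) summed to between 0 and 9.55 FPKM over the 32 libraries, beside Cox6a2 and Cox8b at 0.

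In the comparisons with WT no marker passed. The forebrain marker sum, at 162 to 222 FPKM in WT Fb, was 257, 221, 167 and 112 FPKM in TKO_Ex Fb. It was 209, 248 and 221 FPKM in DKO_Ex Fb and 253, 123 and 200 FPKM in DKO_CD Fb. The mesenchyme sum was 131 to 154 FPKM in DKO_Ex Fb and 112 to 172 FPKM in TKO_Ex Fb, where WT Fb began at 170 FPKM, 85.8 to 212 FPKM in DKO_CD Fb and 112 to 179 FPKM in DKO_CD Mb. The surface ectoderm sum reached 225 FPKM in TKO_Ex Fb, 165 FPKM in DKO_Ex Fb and 203 FPKM in DKO_CD Fb, above the WT Fb range. The lowest library of each group lay within that range. In DKO_CD Mb it was 22.3, 71.2 and 54.4 FPKM, where WT Mb reached 38.3 FPKM. The neural progenitor sum was 561, 564 and 530 FPKM in DKO_CD Fb, wholly above WT Fb (405 to 499 FPKM). The neuron sum reached 27.6 FPKM in DKO_CD Fb (WT Fb up to 16.5 FPKM). In TKO_Ex Fb only replicate 4 lay above WT for these sums, at 606 and 26.6 FPKM. In DKO_Ex Fb both stayed within the WT Fb range. In TKO_Ex the tissue comparison also called Hbb-y, the embryonic β-globin, higher in the Mb (0.95, limma adjusted p = 0.0494), with red cell sums of 5431 to 10130 FPKM in Fb and 13135 to 20211 FPKM in Mb. The part of these cell types in the members' values was not tested.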

How the data were processed

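Fragments were aligned by the authors to GRCm38/mm10 with TopHat2, and FPKM values per gene were made with Cufflinks and deposited as 1 table per library; the annotation and tool versions are not given in the sources used here. The authors counted reads with HTSeq for DESeq2, but counts were not used here, since the tables hold FPKM. FPKM divide by gene length, so small length differences weigh most on short genes. Symbols, positions and coding lengths came from GENCODE M21, joined by Ensembl identifier. Repeated identifiers were summed. No column was left without a sample.

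The test was limma (version 3.58.1, R 4.3.3), applied to log2(FPKM + 1) of every gene that averaged 1 FPKM or more in the libraries of a comparison, with trended variances and Benjamini-Hochberg adjustment over these genes (threshold 0.05); log2 differences are on that scale and understate the change of low genes. Only the groups compared entered a fit. Exact permutation tests used SciPy 1.17.1 and were run only on the 4 members past the limma threshold. The fits were also run on simulated data, with changes larger than most member differences here and no shift by coding length. Those runs therefore do not speak to the small differences reported. Named were members past the threshold, those with the highest and lowest level per complex, the isoform genes, members on chromosomes 8 and 15, the smallest p and the outermost differences per comparison, and in each list the genes past the threshold and the most abundant. The members and lists were chosen with earlier results of these data known. Depth was estimated from the steps of the values at genes with transcripts of at least 4000 bases, of which between 89.0% and 96.8% per library fell within 0.1 of a whole fragment count; intervals were not derived from it.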

Additional observations from a re-analysis of the deposited data

Results flagged for a closer look

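For the named members and the summed level of each complex, 136 groups of 4 or more libraries were examined. In 7 of them a library lay far from the others, near the share of about 1 in 20 that chance gives. WT_Mb replicate 1 stood out upward 3 times: Atp5g2 was at 399 FPKM there (nearest library 326 FPKM), Atp5h at 349 FPKM (nearest 307 FPKM), and the summed level of complex I at 4770.2 FPKM (nearest 4066 FPKM). TKO_Ex_Fb replicate 1, the deepest library, had Cox7c at 299 FPKM, with the nearest library of its group at 647 FPKM. Cox6b1 was at 491 FPKM in WT_Fb replicate 2 (nearest 318 FPKM), Ndufb9 at 106 FPKM in TKO_Ex_Mb replicate 4 (nearest 129 FPKM), and Cox6b2 at 22.9 FPKM in TKO_Ex_Mb replicate 2 (nearest 19.2 FPKM). Whether these libraries differ beyond chance was not tested.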

How the results depend on the processing

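Every alternative could be run. Members called in WT Mb against WT Fb (2) became 1 with the filter applied in every library, 0 with quantile normalization (median -0.038 in place of -0.12), 1 with all groups in one fit, 0 without the mean-variance trend, 1 with the replicate block and 1 with coding-length classes centred (an alternative chosen after seeing the data); leaving out single libraries gave 0 to 10. In DKO_Ex Mb against Fb (2), no filter, all groups in one fit and no trend each gave 0, the replicate block 1 and centring 1; leaving out single libraries gave 0 to 4. Ndufa6 passed in DKO_CD Fb against WT under median-of-ratios scaling (1 call). When records in place of headings set the DKO groups, the tissue comparison of DKO_Ex had 0 calls (median 0.01, and Uqcrq reversed to 0.065, limma adjusted p = 0.906) and that of DKO_CD 2 calls (median -0.11). By record, the Mb medians against WT were 0.11 in DKO_Ex and -0.084 in DKO_CD, and the interaction medians 0.13 and 0.006. No member was called against WT in any other setting. Scaling moved the median of all genes by at most 0.047 (log2). The share of all genes called is not given for these alternatives. The cause of these changes was not tested. No source used here ties a replicate number to 1 embryo, and the numbers were not taken to pair Fb with Mb: the paired deviations correlated above 0.1 in 3 of 6 WT, 2 of 4 TKO_Ex, 2 of 3 DKO_Ex and 1 of 3 DKO_CD pairs, while the best partner had the same number for 5 of 6, 3 of 4, 3 of 3 and 1 of 3 in the same order, a hint from the data that some may be paired. Depth limits what can be said of Cox6a2, Cox7b2, Cox8b and Cox8c, listed at 0 in every library, and of Cox7a1, Cox4i2 and Ndufa4l2, at 0 in some.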
